A study of Mus musculus with 6 samples.

Results

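Passenger arms are the minor strands of microRNA (miRNA) hairpins. The 8 described here stood in the deposited tables of up- and down-regulated miRNAs of mouse renal tubular epithelial cells (mRTECs) stimulated beforehand with TGF-β1. Those tables held 16 of the 121 minor arms with a tag, so other minor arms were listed too. The 8 were let-7i-3p, miR-21a-3p, miR-10b-3p, miR-26a-1-3p, miR-27b-5p, miR-132-5p, miR-196b-3p and miR-221-5p. They were chosen by name, as minor arms whose other arm is the usual guide, and were 8 of the 55 distinct sequences in both tables and of the 1272 in the table of all miRNAs. None of the 8 guide arms was listed as up- or down-regulated, and all 8 guide arms had tags in the full table. Because the authors selected their tables on a difference in these same libraries, the difference of each of the 8 passenger arms describes that selection and is not independent of it. The guide arms and the arm shares of other hairpins took no part in the choice.

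The mRTECs were from the C57BL/6 strain and were stimulated with TGF-β1 for 48 h in both groups. By the authors' paper, both groups then received medium without added TGF-β1. In the libraries labelled co-cultured (replicates 1 to 3), the cells were then kept for 24 h with bone marrow mesenchymal stem cells (BM-MSCs) across a Transwell membrane. In the libraries labelled control (replicates 1 to 3), no BM-MSCs were added. TGF-β1 is the cytokine used here to make a fibrotic model in tubular cells, so no group of unstimulated cells was part of the comparison, and BM-MSCs could act only through what passed the membrane. Nothing in the labels says that the replicates were separate cultures, so the p-values measure the spread between these libraries.

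A miRNA hairpin is cut by Drosha and Dicer into a duplex of a 5p and a 3p arm. Argonaute keeps the guide arm, usually the strand whose 5′ end is less tightly paired, and the passenger arm is mostly discarded and degraded, so that a small RNA library holds few of its tags. Target mRNAs are recognised mainly through the seed, bases 2 to 8 of the loaded arm, and the arms of a hairpin therefore have different targets.

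The mature sequences of both arms are shown because the seed is what separates each passenger from its guide. They are credited to RefSeq (GRCm38.p6), in which 8 of 8 passenger and 8 of 8 guide sequences of the deposited table were found unchanged. The seed is in capitals, and each passenger is followed by its guide.
let-7i-3p: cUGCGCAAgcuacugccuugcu
let-7i-5p: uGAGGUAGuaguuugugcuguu
miR-21a-3p: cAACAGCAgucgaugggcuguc
miR-21a-5p: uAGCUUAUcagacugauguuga
miR-10b-3p: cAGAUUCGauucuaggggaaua
miR-10b-5p: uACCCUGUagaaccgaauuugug
miR-26a-1-3p: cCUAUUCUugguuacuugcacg
miR-26a-5p: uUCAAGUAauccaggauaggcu
miR-27b-5p: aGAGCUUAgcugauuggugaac
miR-27b-3p: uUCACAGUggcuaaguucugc
miR-132-5p: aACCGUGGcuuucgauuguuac
miR-132-3p: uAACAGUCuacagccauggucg
miR-196b-3p: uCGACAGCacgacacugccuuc
miR-196b-5p: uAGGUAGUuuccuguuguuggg
miR-221-5p: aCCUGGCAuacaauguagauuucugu
miR-221-3p: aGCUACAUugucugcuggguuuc

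No passenger shared its seed with another miRBase-named sequence that had a tag in these libraries (0 of 8), whereas 7 of the 8 guides did. The let-7i-5p seed was that of 8 others, the let-7 family members and miR-98-5p, and the other shared seeds paired miR-10b-5p with miR-10a-5p, miR-26a-5p with miR-26b-5p, miR-27b-3p with miR-27a-3p, miR-132-3p with miR-212-3p, miR-196b-5p with miR-196a-5p and miR-221-3p with miR-222-3p. The opening base was U in 7 of 8 guides and in 1 of 8 passengers, 4 of which began with C. Over all hairpins with both arms in the table, U opened 51.3% of 119 major arms and 21.5% of 121 minor arms, while C opened 36.4% of the minor arms. In bases 1 to 4, where a loosely paired end would be rich in A and U, the guides held 19 A or U of 32 bases and the passengers 15 of 32. The guide held more A or U there in 4 of the 8 hairpins and as many in the other 4.

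The hairpins lie on 7 chromosomes (GRCm38), with mir-132 and mir-21a on the same one. Mirlet7i (chr10:122985640-122985724, minus strand) lies in an exon of a processed transcript of D630033A02Rik, and Mir21a (chr11:86584067-86584158, minus strand) in a UTR exon of Vmp1, which codes for an autophagy membrane protein. Mir10b (chr2:74726070-74726137, plus strand) lies in introns of Hoxd4 and Hoxd3 transcripts, and Mir196b (chr6:52230081-52230165, minus strand) in exons of non-coding transcripts of Hoxa9, so both sit in Hox clusters. Mir26a-1 (chr9:119031796-119031885, plus strand) is intronic in the phosphatase gene Ctdspl, and Mir132 (chr11:75173682-75173747, plus strand) is in an intron of 1700016P03Rik. Mir27b (chr13:63300712-63300784, plus strand) lies in 2010111I01Rik, in a UTR exon of a transcript marked for nonsense-mediated decay, and opposite an intron of Fancc. Mir221 (chrX:19146294-19146388, minus strand) overlaps no other annotated gene.

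The co-cultured libraries held 3740503, 3878756 and 4038815 tags, and the control libraries 2873703, 3029205 and 2995154. Of the 1272 sequences, 1005 had a tag and 984 with at least 6 tags in all were tested. Co-cultured replicate 1 was close to the mean of co-cultured replicates 2 and 3, and control replicate 2 to the mean of control replicates 1 and 3. Their squared deviations from that mean were 0.531 and 0.974 times the counting variance, against 18.9 to 22.1 times for the other 4 libraries, and where exactly 1 of the other 2 libraries listed a sequence they listed it as well in 416 of 429 and 347 of 357 cases, at a median of 0.496 and 0.518 of its level. How they came to be so close is not stated, and they are called averaged libraries here only for that closeness. They deviated from their group by no more than counting error, so they cannot be relied on as independent replicates. Tests with all 6 libraries may therefore understate the spread between libraries. Each passenger and guide is tested with all 6 libraries and, as an alternative chosen after seeing the data, with the 4 others. The group means in the deposited tables carry the opposite names: in all 1089 entries, the mean named for BM-MSC co-culture was that of the libraries labelled control. Directions below follow the sample labels, and every higher or lower would turn round if the names in the tables were the right ones. By the labels, miR-146a-5p was lower in co-cultured libraries (log2 difference -4.71, adjusted p = 3.02e-09 by edgeR with the 4 libraries). The authors' paper reports it as up-regulated in mRTECs by BM-MSCs, by sequencing and by quantitative PCR. Which names are right was not tested. Of the epithelial marker miRNAs fixed for the check, 6 of 8 had tags, with miR-200a-3p and miR-141-3p at none, and their summed level was 327 to 341 tags per 1000000 tags (CPM) in co-cultured and 361 to 518 in control libraries, nearly all of it miR-192-5p. Of the mesenchymal stromal markers, 4 of 5 had tags (miR-214-3p had none), at 398 to 407 CPM in co-cultured and 578 to 722 in control libraries. This sum was mostly miR-143-3p, and the other 3 stromal markers stood the other way, at 4.66 against 1.65 CPM for miR-199a-3p, 12.6 against 4.69 CPM for miR-199a-5p and 5.43 against 3.40 CPM for miR-145a-5p (TMM-scaled means, co-cultured against control), without passing the test. By edgeR with 6 libraries, miR-192-5p (log2 difference -0.54, adjusted p = 1.05e-05, and 0.0792 with 4 libraries) was the only one of the 6 epithelial markers and miR-143-3p (-0.90, adjusted p = 2.15e-17, and 3.88e-06 with 4) the only one of the 4 stromal markers past the threshold. Blood cell markers reached at most 0.535 CPM in co-cultured and none in control libraries. The muscle list, miR-1a-3p alone, stood at 0.990 to 2.84 CPM in co-cultured and 0 to 1.74 in control libraries, and the neuron list, miR-9-5p alone, at 4.95 to 9.28 and 10.1 to 11.9 CPM in the same order. The part of other cells in the results below was not tested, and fewer cells of a type and less RNA per cell cannot be told apart in these bulk libraries.

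The passengers fell into 3 kinds by how they were listed. Of the 8, 4 were blank in every library of 1 group, 2 were blank in 1 library and 2 had tags in all 6. In the whole table, 15 of the 1005 sequences with a tag had 5 or more tags in every co-cultured library and blanks in every control library, and 13 had the reverse. By the labels, 4 were higher and 4 lower in co-cultured libraries, and the levels of the groups did not overlap in any of the 8. The groups did not overlap in 16.1% of all 984 tested sequences and in 35.0% of the 117 tested minor arms. The authors' selection used this same contrast.

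**Figure D1:**
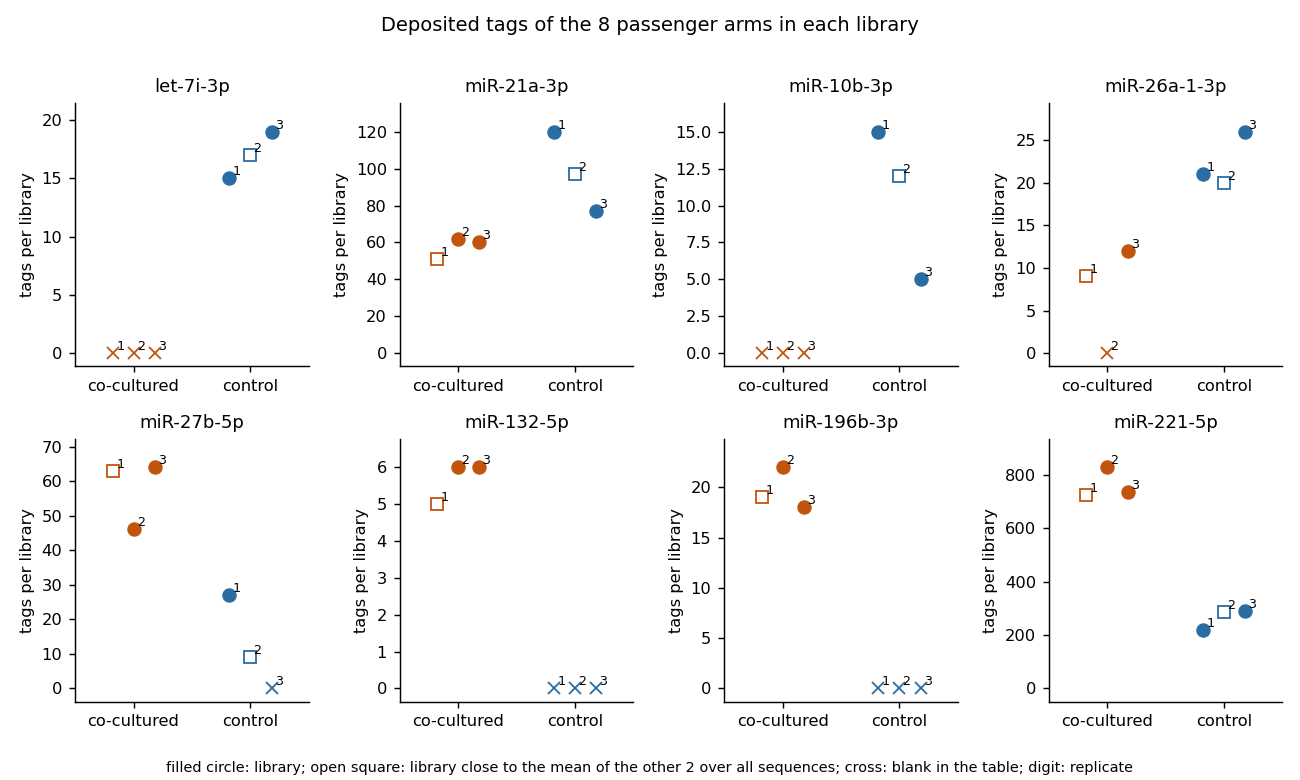
Deposited tags (y axis, own scale per panel) of each passenger arm in the 3 co-cultured and 3 control libraries. Squares mark the averaged libraries and crosses blank cells: let-7i-3p and miR-10b-3p are blank in all co-cultured libraries, miR-132-5p and miR-196b-3p in all control libraries, and miR-221-5p stands at 726 to 828 tags in co-cultured and 217 to 289 in control libraries.

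The passenger with the most tags was miR-221-5p, whose 3p partner represses the cell cycle inhibitor Cdkn1b. It had 726, 828 and 737 tags in co-cultured libraries, against 217, 286 and 289 in control libraries. Scaled by TMM (edgeR's trimmed mean scaling of library sizes), this was 185 ± 9.28 CPM in co-cultured and 95.2 ± 19.8 in control libraries (SD, n = 3 each, of which 1 is an averaged library). Every co-cultured library was above every control library. It was the 89th most abundant sequence of the table, and its log2 difference was 0.96 ± 0.14 (SE) with an adjusted p of 1.45e-10 by edgeR's quasi-likelihood test over all 984 sequences, and 1.01 ± 0.24 with an adjusted p of 0.00252 in the 4 libraries. It was the only one of the 8 passengers that passed the test in both.

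miR-21a-3p is the passenger of miR-21a-5p, a miRNA known to increase with TGF-β signalling and in fibrotic kidney. It had 51, 62 and 60 tags in co-cultured libraries, against 120, 97 and 77 in control libraries. The scaled levels were 13.9 ± 0.378 CPM in co-cultured and 34.8 ± 5.40 in control libraries (SD, n = 3 each), without overlap. It fell by 1.32 on the log2 scale (SE 0.34, adjusted p = 0.00257 by edgeR) in 6 libraries, and in the 4 libraries its difference was -1.29 ± 0.64 (SE) with an adjusted p of 0.597. By DESeq2 with 6 libraries the adjusted p was 0.104. For comparison, between the co-cultured libraries other than the averaged ones, miRBase-named sequences of 31 to 100 tags differed by a median of 0.68 on the log2 scale (90th percentile 1.53), and the control pair by 0.86 (90th percentile 2.03). The difference of miR-21a-3p lay between the medians and the 90th percentiles. These are unlike measures, since the spread is between 2 single libraries and the difference is fitted between groups. The comparison is therefore no test of miR-21a-3p.

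let-7i-3p comes from the hairpin of let-7i-5p, a let-7 miRNA that represses growth and stemness genes such as Hmga2 and Lin28. It was blank in all 3 co-cultured libraries and had 15, 17 and 19 tags in control libraries. This was 6.13 ± 1.16 CPM in control libraries (SD, n = 3). It passed edgeR's test with 6 libraries (adjusted p = 0.0409) and did not with 4 (adjusted p = 0.597). No fold is given for it or for the other members with a blank group, because a blank cell was not shown to be 0 tags.

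miR-10b-3p, whose guide comes from the Hoxd cluster, was likewise blank in all co-cultured libraries. Its control libraries held 15, 12 and 5 tags, or 5.07, 4.21 and 1.94 CPM, and its adjusted p by edgeR was 0.140 with 6 libraries and 0.597 with 4. miR-26a-1-3p, from the Ctdspl intron, had 9 and 12 tags in co-cultured replicates 1 and 3, a blank in replicate 2, and 21, 20 and 26 tags in control libraries. Its groups did not overlap, and its log2 difference was -2.19 ± 1.27 (SE, adjusted p = 0.140 by edgeR), or -2.53 ± 2.62 with an adjusted p of 0.597 in 4 libraries. The 2 co-cultured libraries other than the averaged ones gave a blank and 12 tags, and the corresponding control libraries 21 and 26.

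Higher in co-cultured libraries, but short of the threshold, were the remaining 3. miR-27b-5p had 63, 46 and 64 tags in co-cultured libraries, against 27, 9 and a blank in control libraries. The control libraries other than the averaged ones ranged over 27 tags and a blank, and the log2 difference was 1.76 ± 0.73 (SE, adjusted p = 0.129 by edgeR), or 1.47 ± 1.46 with an adjusted p of 0.597 in 4 libraries. Without control replicate 1 it was 3.10 (adjusted p = 0.000272 by edgeR). The control libraries left were then the averaged library and a blank, and the whole table gave 282 sequences past the threshold against 76.

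miR-196b-3p had 19, 22 and 18 tags in co-cultured libraries and was blank in all 3 control libraries. It stood at 4.76 ± 0.435 CPM in co-cultured libraries (SD, n = 3), and its adjusted p by edgeR was 0.135 with 6 libraries and 0.597 with 4. By limma on the authors' normalized values it passed, with an adjusted p of 0.0456 at a pseudocount of 1 and 0.0272 at 0.1. Those values were rounded to 3, 3 and 2 in co-cultured libraries. The blank control libraries held only the pseudocount, without spread, so nothing is read from this pass. miR-132-5p, the rarest of the 8, had 5, 6 and 6 tags in co-cultured libraries and was blank in all control libraries, with an adjusted p of 0.140 by edgeR with 6 libraries and 0.597 with 4. At 17 tags in all it was the 907th sequence of the table by abundance. In the test across the table, 3 of the 8 passengers passed with 6 libraries (miR-221-5p higher, miR-21a-3p and let-7i-3p lower), where 7.72% of all 984 sequences passed, and 1 of 8 passed with 4 libraries, where 1.93% passed. The authors' selection had used the contrast, and nothing is read from these counts.

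How often a miRNA with few tags was blank in a second library was counted over single pairs of libraries. These shares do not give the rate of a blank in every library of 1 group, the pattern of 4 members. Why the 6 members with blanks had them was not tested. Among minor arms with 5 to 30 tags in 1 library, 39.1% of 276 comparisons were blank in a library of the other group, and 40.6% of 138 were blank in the other library of the same group (averaged libraries left out). With 31 to 100 tags the blanks were 7.65% of 170 between and 4.71% of 85 within groups, and with more than 100 tags they were 0.424% of 236 between and 0% of 118 within. Over all sequences with 5 to 30 tags the shares were 71.5% between and 72.2% within groups. All listed cells of let-7i-3p, miR-10b-3p, miR-26a-1-3p, miR-132-5p and miR-196b-3p lie in this range of 5 to 30 tags. Those of miR-27b-5p ran from 9 to 64 tags. The table has no cell at 1 tag, its smallest listed value was 2, and 63 cells were listed at 2 tags against 130 at 9. No detection limit is therefore given for a blank.

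**Figure D2:**
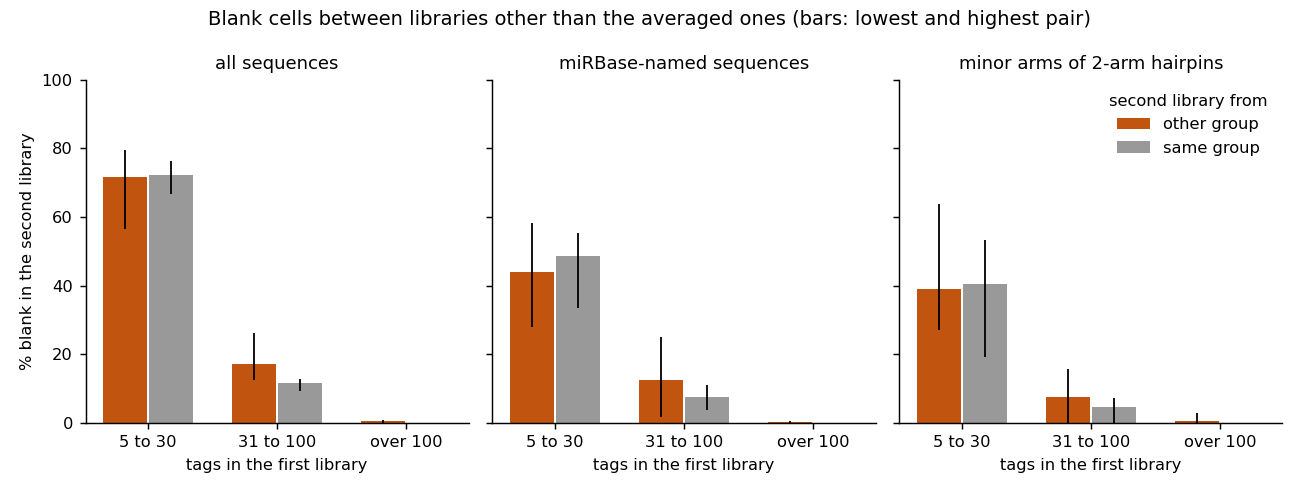
Share of sequences blank in a second library (y axis, %) by their tags in a first library (x axis), for pairs from the other group and from the same group. Whiskers span the lowest and highest pair of libraries: at 5 to 30 tags, minor arms were blank in 39.1% of comparisons between groups and 40.6% within a group.

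The guide arms were not chosen through the authors' lists. Their tags measure the mature arm, and the level of the hairpin was not measured. Their order by total tags was let-7i-5p (the 3rd sequence of the table), miR-21a-5p (the 9th), miR-27b-3p (the 11th), miR-10b-5p (the 16th), miR-26a-5p (the 25th), miR-196b-5p (the 50th), miR-221-3p (the 83rd) and miR-132-3p (the 239th). The description as abundant hairpins thus held for the others and not for mir-132, whose guide had 135 tags in all. By edgeR with 6 libraries 2 of 8 guides passed, miR-27b-3p and miR-221-3p, both higher in co-cultured libraries, and with the 4 libraries only miR-27b-3p did. The median log2 difference of the 8 guides was 0.07, against 0.06 for the 137 major arms of all hairpins, of which 18 were higher and 14 lower. The groups did not overlap in 5 of the 8 guides and in 41.2% of 119 major arms.

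miR-27b-3p, a repressor of the lipid regulator Pparg, rose most clearly. It had 67628, 72225 and 71544 tags in co-cultured libraries, against 32820, 29725 and 25862 in control libraries. The scaled levels were 17083 ± 755 CPM in co-cultured and 10516 ± 540 in control libraries (SD, n = 3 each), without overlap. The log2 difference was 0.70 ± 0.09 (SE) with an adjusted p of 2.73e-12 by edgeR, and 0.69 ± 0.13 with 5.20e-05 in the 4 libraries. Its passenger miR-27b-5p was also higher by level, without passing the test.

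miR-221-3p had 801, 1039 and 663 tags in co-cultured libraries, against 479, 376 and 262 in control libraries. Scaled, co-cultured replicate 3 (157 CPM) lay below control replicate 1 (162), so the groups overlapped. The log2 difference was 0.61 ± 0.13 (SE, adjusted p = 6.26e-05 by edgeR) with 6 libraries and 0.60 ± 0.22 with an adjusted p of 0.245 with 4. By DESeq2 with 6 libraries its adjusted p was 0.105. Both arms of mir-221 were thus higher in co-cultured libraries, the 5p arm by the test in both sets of libraries and the 3p arm with 6 libraries only.

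The guides of the let-7i, mir-21a, mir-10b, mir-26a-1 and mir-196b hairpins did not pass in either set of libraries. let-7i-5p stood at 90988 ± 4352 CPM in co-cultured and 91860 ± 1433 in control libraries (SD, n = 3 each), a log2 difference of -0.01 ± 0.11 (SE, adjusted p = 0.923 by edgeR, and 0.948 with 4 libraries). miR-21a-5p stood at 16955 ± 823 CPM in co-cultured and 14566 ± 720 in control libraries, a log2 difference of 0.22 ± 0.09 (adjusted p = 0.130 by edgeR, and 0.597 with 4 libraries), opposite in sign to its passenger. Its call depended on the setting: it passed by DESeq2 (adjusted p = 0.0143), with DESeq2's size factors in edgeR (0.0301), with library totals (0.00151), with a minimum of 60 tags (0.0472), without co-cultured replicate 2 (0.0495) and without control replicate 1 (0.0277). miR-10b-5p differed by -0.06 ± 0.09 (adjusted p = 0.587 by edgeR, and 0.718 with 4 libraries) and miR-196b-5p by -0.16 ± 0.10 (0.140, and 0.597 with 4 libraries). These values depended on scaling: library totals alone, without TMM, moved the median of all differences by 0.12, and let-7i-5p, miR-10b-5p and miR-196b-5p then had a positive sign.

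miR-26a-5p, whose sequence is shared with the mir-26a-2 hairpin, differed by 0.15 ± 0.09 (SE, adjusted p = 0.140 by edgeR, 0.597 with 4 libraries and 0.0173 with library totals). Its tags cannot be assigned to either hairpin. miR-132-3p had 19, 21 and 25 tags in co-cultured libraries and 18, 26 and 26 in control libraries, a log2 difference of -0.68 ± 0.91 (adjusted p = 0.534 by edgeR, and 0.880 with 4 libraries). Against the blank control cells of its passenger, this guide was listed in every library.

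**Figure D3:**
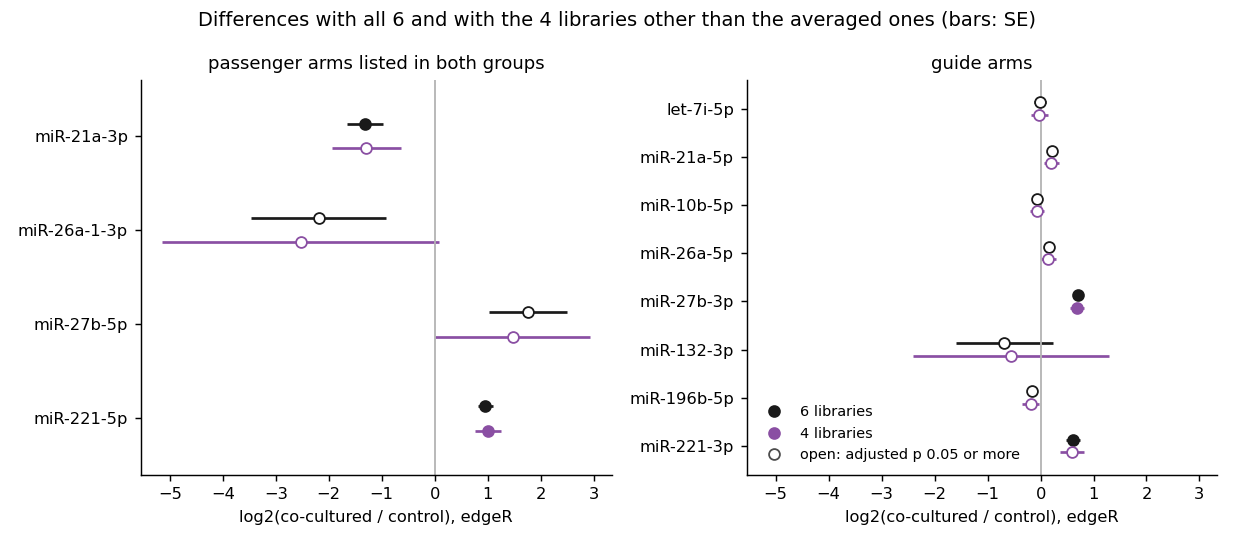
Log2 difference, co-cultured over control, by edgeR (x axis; bars are SE) for the 4 passengers listed in both groups and the 8 guides, with 6 and with 4 libraries. Filled points passed an adjusted p of 0.05: miR-221-5p and miR-27b-3p do with both sets, miR-21a-3p and miR-221-3p with 6 libraries only.

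The share of a hairpin's tags on the passenger arm does not depend on library scaling. Over the 6 libraries together it was 0.00269% for let-7i, the lowest of 124 hairpins, 0.0264% for mir-10b, 0.0697% for mir-27b, 0.140% for mir-21a, 0.246% for mir-26a-1 (with all tags of miR-26a-5p in its denominator), 0.535% for mir-196b, 11.2% for mir-132 and 46.0% for mir-221. The median over the 124 hairpins was 6.71%, and 27 of them lay under 1%. mir-132 and mir-221 were 73rd and 120th from the lowest. These shares pool both groups, and the order differed between them: mir-27b lay above mir-21a in co-cultured replicates 1 and 3 and below it in every control library, and mir-132 and mir-196b had no passenger tag in control libraries. miR-221-5p exceeded miR-221-3p in co-cultured replicate 3 (737 against 663 tags) and in control replicate 3 (289 against 262), so the name passenger did not hold for it in those libraries.

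The mir-21a share was 0.0759%, 0.0873% and 0.0836% in co-cultured libraries, against 0.263%, 0.236% and 0.214% in control libraries. The 95% Wilson intervals, which cover counting error only, reached at most 0.112% in co-cultured and began at 0.171% or above in control libraries. The intervals of the groups were thus apart in every library. For mir-221 the share was 47.5%, 44.3% and 52.6% in co-cultured libraries, against 31.2%, 43.2% and 52.5% in control libraries. Control replicates 1 and 3, the libraries other than the averaged ones, were farther apart than the means of the groups. For mir-27b the share was 0.0931%, 0.0636% and 0.0894% in co-cultured libraries, against 0.0822%, 0.0303% and a blank in control libraries. These groups overlapped, unlike those of mir-21a.

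The mir-26a-1 share was 0.126%, a blank and 0.166% in co-cultured libraries, against 0.437%, 0.432% and 0.628% in control libraries, without overlap. The mir-196b share was 0.937%, 1.09% and 0.798% in co-cultured libraries, with no tag listed in control libraries. The mir-132 share rested on 5 or 6 passenger tags and was 20.8%, 22.2% and 19.4% in co-cultured libraries, with intervals between 9.19% and 40.8%. In control libraries 18 to 26 guide tags stood without a listed passenger. Control shares were 0.00559%, 0.00653% and 0.00788% for let-7i and 0.0959%, 0.0711% and 0.0286% for mir-10b, with no passenger tag listed in co-cultured libraries.

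**Figure D4:**
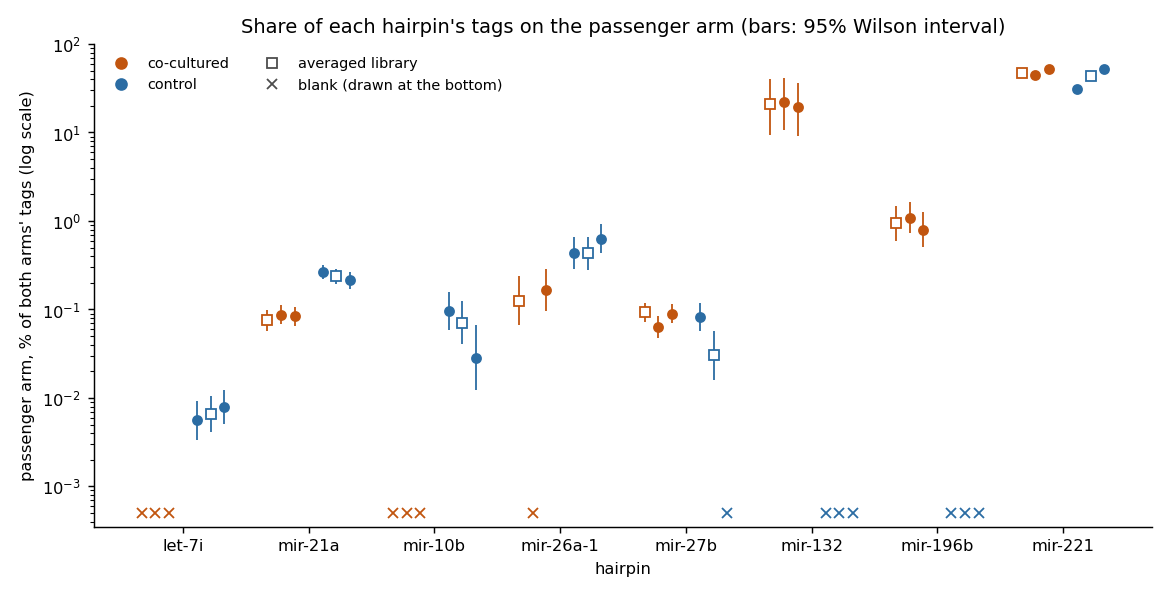
Passenger tags as a percentage of the tags of both arms (y axis, log scale) in each library, by hairpin. Bars are 95% Wilson intervals and crosses at the bottom are blank cells: mir-21a lies at 0.0759% to 0.0873% in co-cultured and 0.214% to 0.263% in control libraries, whereas mir-221 overlaps.

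The ratio of passenger to guide was tested by limma on the log2 scale over the 124 hairpins. It uses the same passenger tags as the authors' selection, so these values are descriptions too. For mir-21a, listed in all 6 libraries, the log2 difference of the ratio was -1.52 ± 0.24 (SE, adjusted p = 0.0141 by limma), and in the 4 libraries -1.47 ± 0.65 with an adjusted p of 0.584. With 6 libraries 5 of the 8 hairpins passed, where 15.3% of the 124 did, but the other 4 of these, let-7i, mir-10b, mir-132 and mir-196b, have a wholly blank group, in which the passenger term is the same 0.5 added tags in every library. Their size and spread rest on that constant (mir-132 had an adjusted p of 0.140 by edgeR on its passenger tags), and nothing is read from the count. With the 4 libraries 0 of the 8, and 0% of the 124, passed limma's test. An unadjusted p under 0.05 was then found for 12 of the 124 and for 4 of the 8, again the hairpins with a blank group, while mir-21a had 0.104. mir-221 did not pass with either set (log2 difference 0.36 ± 0.38, adjusted p = 0.547 by limma). By an exact two-sided permutation test of the ratio, 6 of the 8 hairpins gave p = 0.1, the smallest that 3 libraries against 3 allow, mir-27b gave 0.2 and mir-221 gave 0.4. With 2 against 2 the smallest possible p is 0.333. This permutation test was run on the 8 hairpins only, so no share over the 124 stands beside it. Its ratios hold the selected passenger tags, and the averaged libraries are not independent units to permute. Nothing is read from these p-values.

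Across all hairpins with both arms listed, 5 of 117 tested minor arms were higher and 13 lower in co-cultured libraries by edgeR with 6 libraries. With 4 libraries 1 was higher and 4 were lower. The authors' tables held 16 of the 121 minor arms with a tag and 7 of the 119 major arms. The median total of a minor arm was 137 tags, and of the 8 passengers miR-221-5p (3083), miR-21a-3p (467) and miR-27b-5p (209) exceeded it.

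Cluster partners of the hairpins are arms from a shared transcript, whose own level was not measured. miR-23b-3p and miR-24-3p come from the cluster of mir-27b, miR-24-3p also from a second hairpin. miR-23b-3p had 600, 593 and 634 tags in co-cultured libraries against 342, 342 and 302 in control libraries, without overlap after scaling and with a log2 difference of 0.33 ± 0.14 (SE, adjusted p = 0.124 by edgeR, and 0.597 with 4 libraries). miR-24-3p differed by 0.10 ± 0.10 and the passenger miR-24-1-5p by 0.72 ± 0.67. Of this cluster only miR-27b-3p therefore passed the test.

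miR-222-3p, the cluster partner of mir-221, had 66, 69 and 63 tags in co-cultured libraries, against 59, 45 and 31 in control libraries. Its log2 difference was 0.01 ± 0.46 (SE, adjusted p = 0.989 by edgeR, and 0.986 with 4 libraries), an error wide enough to hold that of miR-221-3p within 2 SE. miR-222-5p was listed in 3 of the 6 libraries. miR-212-3p, the partner of mir-132 with the seed of miR-132-3p, had 4 and 6 tags in co-cultured replicates 1 and 3 and blanks in co-cultured replicate 2 and all control libraries.

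Related hairpins held passengers of their own. miR-26a-2-3p, the passenger of the other hairpin that makes miR-26a-5p, had 86, 65 and 143 tags in co-cultured libraries, against 96, 147 and 163 in control libraries. It fell by 1.04 on the log2 scale (SE 0.27, adjusted p = 0.0027 by edgeR), with an adjusted p of 0.597 in the 4 libraries, and its scaled levels overlapped. miR-10a-3p, the counterpart of miR-10b-3p, had 45, 18 and 63 tags in co-cultured libraries against 15, 6 and a blank in control libraries, where miR-10b-3p was listed in control libraries only. Neither miR-10 passenger passed the test.

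In the mir-27a hairpin the 5p arm was the more abundant. miR-27a-5p had 2642, 2285 and 3343 tags in co-cultured libraries, against 2728, 2669 and 2525 in control libraries. It fell by 0.50 on the log2 scale (SE 0.09, adjusted p = 4.88e-06 by edgeR), with an adjusted p of 0.0484 in the 4 libraries, while miR-27a-3p, with the seed of miR-27b-3p, differed by 0.00 ± 0.12. let-7e-3p, a let-7 passenger, fell with 6 libraries by 0.71 (SE 0.18, adjusted p = 0.00169 by edgeR), and its adjusted p in 4 libraries was 0.597. It had 231, 227 and 238 tags in co-cultured libraries, against 223, 263 and 280 in control libraries. let-7d-3p differed by -0.15 ± 0.12 and let-7f-1-3p was listed only in control replicates 1 and 2. Other let-7 passengers were not lower: the sequence shared by let-7a-1-3p and let-7c-2-3p differed by 0.03 ± 0.36 (SE, adjusted p = 0.954 by edgeR). let-7g-3p, blank in co-cultured replicate 2 and control replicate 1, differed by 0.42 ± 2.31 (SE, adjusted p = 0.891 by edgeR). Among the let-7 guides that share the seed of let-7i-5p, let-7a-5p rose by 0.54 (SE 0.09, adjusted p = 1.79e-07 by edgeR, and 0.0309 with 4 libraries). let-7d-5p (0.33, adjusted p = 0.00649 by edgeR) and let-7f-5p (0.31, adjusted p = 0.0117) passed with 6 libraries only, and let-7b-5p, let-7c-5p, let-7e-5p and let-7g-5p did not pass.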

How the data were processed

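Small RNA of 6 mRTEC libraries was sequenced commercially. The submitters' notes on processing list Bowtie 0.12.2 and the builds mm8 and mm9 without their roles. The sources used here name no program for counting, annotation or scaling. For each mature miRNA the authors deposited a whole-number tag count, and a second table of counts scaled by 1 factor per library and rounded, treated here as a score. The deposited lists of up- and down-regulated miRNAs also hold the authors' fold changes and p-values, which were not used.

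Entries of identical mature sequence were merged and blanks taken as 0. Sequences with at least 6 tags in all were tested with edgeR 4.0.16 (R 4.3.3; TMM, quasi-likelihood), co-cultured over control, with Benjamini-Hochberg adjustment and a threshold of 0.05. The SE given with an edgeR difference was derived from the test, as the absolute log2 difference divided by the square root of its F value. The log2 ratio of minor to major arm, with 0.5 tags added, was tested with limma 3.58.1 over 124 hairpins. Both were run on simulated libraries that had neither averaged libraries nor added blanks, so that check does not cover these features of the data. DESeq2 1.42.0, limma on the normalized score, other scalings, filters, pseudocounts, a replicate block and leaving out each library were alternatives. Wilson intervals (95%) cover counting error only, since PCR reads without molecular identifiers are not independent molecules. Coordinates and sequences are from GRCm38 (RefSeq; overlapping genes from GENCODE M21), not from the builds named by the submitters. The text names the 8 members, their guides, cluster partners, related hairpins, miRNAs with the same seed, the marker miRNAs and, for the group names, miR-146a-5p. The members and lists were chosen with earlier results of these data known.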

Additional observations from a re-analysis of the deposited data

How the results depend on the processing

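With both averaged libraries left out (chosen after seeing the data), sequences past the threshold fell to 19 of the whole table against 76, passengers to 1 against 3, guides to 1 against 2 and arm ratios to 0 against 5. By limma with a pseudocount of 1 the whole table gave 39, and limma gave 1 guide with a pseudocount of 1 and 1 with 0.1. Library totals alone gave 4 guides. Leaving out 1 library gave 40 to 486 sequences and 1 to 5 passengers. Without either averaged library (co-cultured replicate 1 or control replicate 2) miR-21a-3p and let-7i-3p lost their calls, and without co-cultured replicate 3 miR-10b-3p and miR-196b-3p gained one. Without control replicate 1 miR-27b-5p and miR-196b-3p gained one, as did miR-196b-3p without co-cultured replicate 2. Signs turned for let-7i-5p (0.157 with library totals, 0.0713 with limma at either pseudocount, -0.0778 to 0.0167 over leaving out 1 library, positive without co-cultured replicate 2), for miR-10b-5p (0.124, 0.0315 and 0.0315 in the same order, -0.142 to 0.0382 over leaving out 1 library, positive without control replicate 3) and for miR-196b-5p (0.00888 with library totals). These guides were not called under any of these settings, and the cause was not tested. Of the values of single miRNAs under alternatives, 199 kept direction and side of the threshold, 13 lost the call, 14 gained one and 9 changed sign. Of those of arm ratios, 87 kept both, 8 lost the call and 1 gained one. Deviations of same-numbered libraries had correlations of 0.12, -0.02 and -0.0037 for replicates 1, 2 and 3 over 154 sequences. Replicates 1 and 2 each include an averaged library, which deviates little from its group mean, so only replicate 3 could have shown a pairing. The replicate block gave 59 sequences, 2 passengers, 2 guides and 4 ratios, losing let-7i-3p and the mir-21a ratio. Blanks were common at few tags: minor arms of 5 to 30 tags were blank in the other library of their own group in 40.6% of comparisons. The cause of these blanks was not tested.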
